A study of Aspergillus nidulans with 4 samples.

Results

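Genes for amino acid transporters of the filamentous fungus Aspergillus nidulans were followed through 4 RNA-seq libraries that differ in carbon and nitrogen source. A gene was taken as a member if its deposited description held 1 of 4 phrases on amino acid transport or amino acid permeases, with the proline permease gene prnB left out. The rule found 28 genes among the 7752 listed on the sense strand. Of these, 26 were described as transporters themselves and are called carrier genes here. The phrases also picked up 2 genes whose products deliver permeases to the cell surface, shrA and ckiA, which are described apart. A total of 18 members were known only by a predicted amino acid transporter domain, so their substrates are not given. Only agtA, shrA and ckiA carried a gene symbol.

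Mycelium of biA1, a biotin-requiring strain that serves as wild type, was grown in minimal medium for 9 to 12 h at 37 °C. The medium held either 1% glucose, labelled as carbon repressing, or 0.1% fructose, labelled as non-repressing, so kind and amount of sugar differed together. The nitrogen source was 10 mM ammonium tartrate, labelled as repressing, or urea, labelled as non-repressing and given as 10 mM on the samples and 5 mM in the growth protocol. Tartrate was present only with ammonium. Each of the 4 combinations is 1 library made from the pooled RNA of 3 cultures, so there is no replicate and conditions were not tested against each other; "higher" and "lower" describe these libraries.

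Fungal amino acid permeases are membrane proteins with many transmembrane segments that bring amino acids into the cell together with protons. In Aspergillus nidulans many genes for the use of secondary nitrogen sources are activated by the GATA factor AreA and kept low by ammonium or glutamine, which is known as nitrogen metabolite repression, while the repressor CreA keeps genes for alternative carbon sources low in glucose. Amino acids can serve as nitrogen source, as carbon source or as both. Permeases leave the endoplasmic reticulum with the help of a packaging chaperone and are withdrawn from the surface by ubiquitin ligases and arrestins.

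Sense counts over all listed genes came to 2606076 in glucose with ammonium, 1698692 in glucose with urea, 547041 in fructose with ammonium and 812637 in fructose with urea. Levels are given as CPM, counts scaled to 1000000 of these sums, and are not divided by gene length, so they compare 1 gene between libraries and not genes with each other. A gene at 0 counts could have had 3 counts, from 1.15 CPM in glucose with ammonium to 5.48 CPM in fructose with ammonium. Ratios are log2 ratios of scaled counts, urea over ammonium or fructose over glucose, followed by a 95% Clopper-Pearson interval. Intervals cover counting error only, because amplified reads are not independent molecules and the spread between cultures was not measured. Each deposited table leaves out genes low in both of its libraries. As a result 24 of the 28 members have a count from all 4 libraries, and AN4124, AN6757 and AN6770 are not listed for glucose with ammonium and AN5890 is not listed for glucose with urea.

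Summed over the 26 carrier genes, the sense level was 2074 CPM in glucose with ammonium, 2351 in glucose with urea, 3914 in fructose with ammonium and 2400 in fructose with urea. The library from fructose with ammonium stood above the other three. Most of the excess lay in 1 gene, AN3359, which held 46.0% of the carrier reads there. Without AN3359, a choice made after its values were seen, the sums were 1898, 1837, 2115 and 1869 CPM in the same order. These are levels in whole mycelium, in which fewer hyphae of a kind and less RNA per hypha cannot be told apart. The make-up of the sum also differed. In both glucose libraries AN0856 held the most reads, 21.3% with ammonium and 23.3% with urea, and in both fructose libraries AN3359 did, followed with urea by AN1659 at 21.5%. The 3 leading genes together held between 56.2% and 65.4% of carrier reads in each library.

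**Figure D1:**
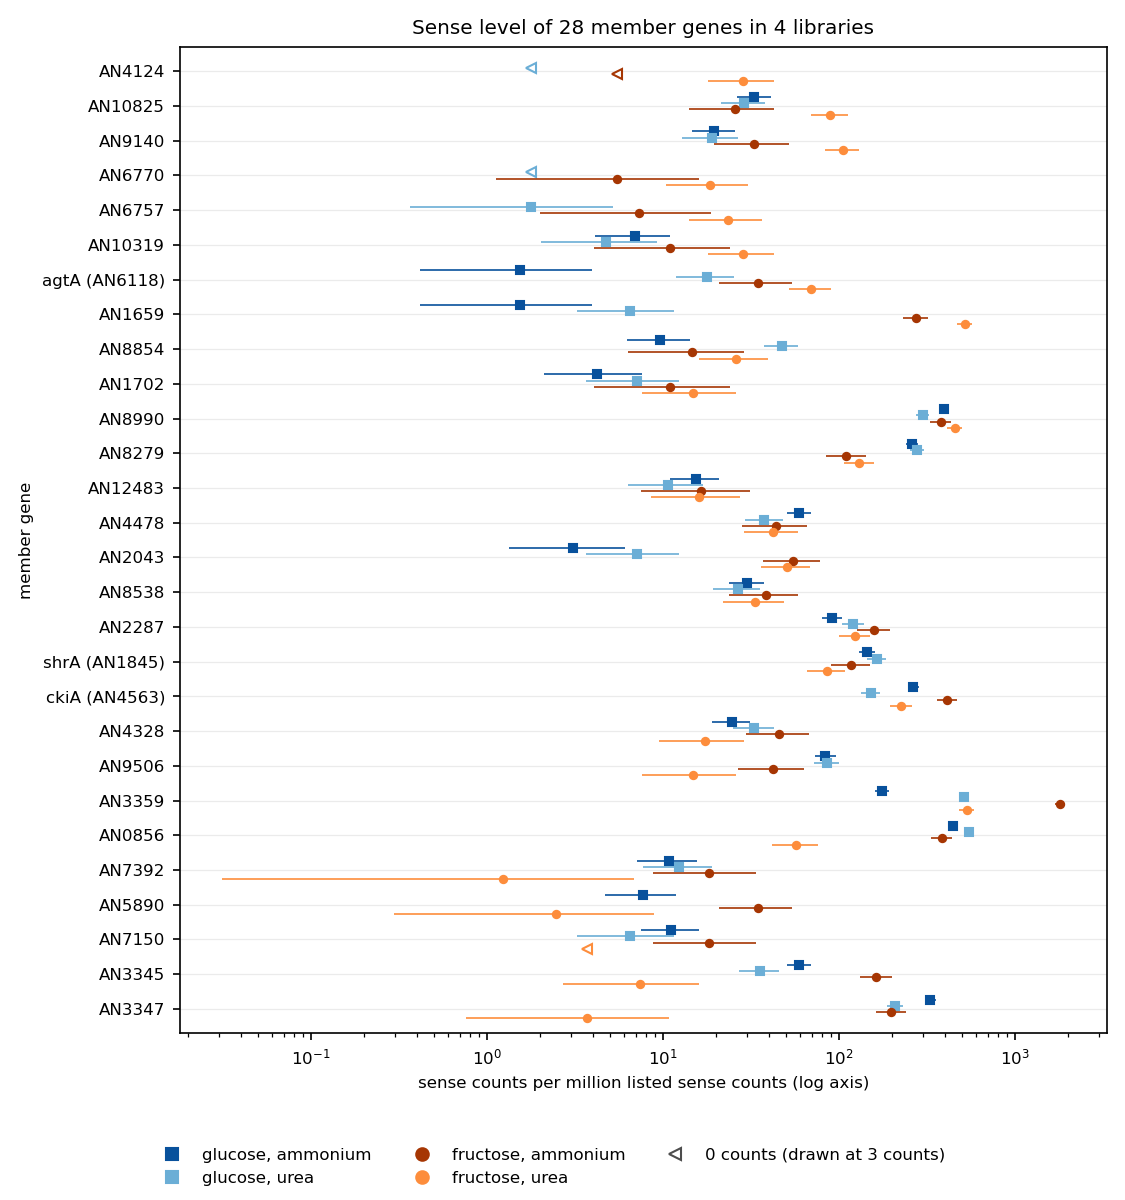
Sense CPM (log axis) of the 28 member genes in each of the 4 libraries, with exact 95% Poisson intervals. Open triangles are genes at 0 counts, drawn at 3 counts. AN1659 and AN2043 lie higher in both fructose libraries, AN0856, AN3347 and AN3345 lie lowest in fructose with urea, and AN3359 reaches 1799 CPM in fructose with ammonium.

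The members with a described substrate or function come first. The agtA gene (AN6118) encodes the dicarboxylic amino acid permease, which takes up glutamate and aspartate with high affinity and is annotated as subject to nitrogen metabolite repression. It had 4 counts in glucose with ammonium, 30 in glucose with urea, 19 in fructose with ammonium and 56 in fructose with urea, that is 1.53, 17.7, 34.7 and 68.9 CPM. The doubly repressing medium thus stood alone at the bottom, and the intervals of neighbouring libraries above it overlapped. The ratio of urea to ammonium was 3.23 (2.07 to 5.54) in glucose and 0.77 (0.02 to 1.62) in fructose. The ratio of fructose to glucose was 3.99 (2.87 to 6.47) with ammonium and 1.65 (1.03 to 2.39) with urea. Either non-repressing source alone therefore went with a higher agtA level.

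AN1659, a putative amino acid transporter gene annotated as induced by nitrate, had 1.53 CPM in glucose with ammonium, 6.48 in glucose with urea, 272 in fructose with ammonium and 517 in fructose with urea. Both fructose libraries lay far above both glucose libraries. Its ratio of fructose to glucose was 6.93 (6.04 to 9.32) with ammonium, from 149 and 4 counts, and 5.90 (5.20 to 7.06) with urea, from 420 and 11 counts. Within fructose, urea went with a further ratio of 0.72 (0.45 to 1.00) over ammonium.

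Among genes annotated for basic amino acids, AN8279, an ortholog of the yeast arginine permease Can1, had 260 CPM in glucose with ammonium, 277 in glucose with urea, 110 in fructose with ammonium and 130 in fructose with urea. The level followed the sugar and differed little with the nitrogen source. Fructose over glucose stood at -1.28 (-1.70 to -0.91) with ammonium and -1.35 (-1.67 to -1.05) with urea, and both nitrogen intervals included 0. AN4478, whose orthologs transport arginine, had 59.5, 37.7, 43.9 and 41.8 CPM in the order used so far, and none of its 4 ratios reached 2-fold.

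AN8854, whose orthologs move glutamine, isoleucine and tyrosine in vacuolar transport, had 9.59 CPM in glucose with ammonium, 47.1 in glucose with urea, 14.6 in fructose with ammonium and 25.8 in fructose with urea. It was highest in glucose with urea, where its interval still overlapped that of fructose with urea, and the ratio to ammonium was 2.29 (1.68 to 3.06) in glucose and 0.58 (-0.61 to 2.01) in fructose. AN9140, a putative transporter of the major facilitator type annotated as repressed by nitrogen limitation, had 19.6, 18.8, 32.9 and 105 CPM. The library from fructose with urea stood above the other three, with ratios of 1.43 (0.72 to 2.29) to ammonium in the same sugar and 2.16 (1.60 to 2.84) to glucose with the same nitrogen source.

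AN0856 and AN3347, putative transporter genes annotated as reduced by the sesquiterpene alcohol farnesol, were both lowest in fructose with urea. AN0856 had 441 CPM in glucose with ammonium, 547 in glucose with urea, 382 in fructose with ammonium and 56.6 in fructose with urea. AN3347 had 330, 208, 197 and 3.69 CPM, the last from 3 counts. For both genes fructose with urea stood far below the other three libraries. AN8279 carries the same farnesol annotation but was not lowest there. It had 110 CPM in fructose with ammonium and 130 in fructose with urea, with overlapping intervals.

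Of the 2 delivery genes, shrA (AN1845) encodes the chaperone that packs permeases, among them aspartate and proline transporters, into vesicles leaving the endoplasmic reticulum. It had 144 CPM in glucose with ammonium, 163 in glucose with urea, 117 in fructose with ammonium and 84.9 in fructose with urea. Casein kinase I, encoded by ckiA (AN4563) and needed for delivery of transporters to the plasma membrane, had 264, 151, 411 and 225 CPM. Neither gene reached 4-fold in any comparison, and their ratios lay between -1.20 and 0.60.

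The gene with the most carrier reads in both fructose libraries, AN3359, had 175 CPM in glucose with ammonium, 514 in glucose with urea, 1799 in fructose with ammonium and 530 in fructose with urea. Fructose with ammonium was highest and glucose with ammonium lowest, with both urea libraries between them. Its nitrogen ratios had opposite signs, 1.60 (1.44 to 1.77) in glucose and -1.96 (-2.13 to -1.80) in fructose. Fructose over glucose was 3.31 (3.15 to 3.48) with ammonium and -0.22 (-0.39 to -0.05) with urea, the latter moving to 0.05 under total count scaling.

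AN8990, with many reads in every library, varied little, at 394, 298, 378 and 453 CPM, and its 4 ratios lay between -0.35 and 0.33. AN2287 had 91.3, 120, 157 and 123 CPM, and AN8538 had 29.9, 26.5, 38.4 and 33.2. None of their ratios reached 2-fold. AN8538 lies beside ngn26 (AN8539), annotated as an ortholog of sidG of Aspergillus fumigatus, whose ratio of urea to ammonium in glucose was 5.63 (4.79 to 7.19) where that of AN8538 was -0.12 (-0.69 to 0.42).

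With urea in place of ammonium in glucose, agtA, AN8854 and AN3359 were the members that differed by 2-fold or more, all towards higher levels. Of the 20 members listed in this comparison, all past the abundance minimum of a mean log2 CPM of 3, agtA and AN8854 lay 4-fold or more above ammonium and 0 lay 4-fold below it. The shares over all 6354 genes above that minimum were 1.34% higher and 0.535% lower. Both agtA and AN8854 met the separate listing minimum, near 10.4 CPM in the higher library, only through glucose with urea. Their direction here was set by that listing minimum. AN3359 lay between 2-fold and 4-fold, and the other 17 members lay within 2-fold, as did 88.5% of all genes. The median of the members was 0.04 against -0.004 for all genes. In the authors' deposited table, whose p-values assume a biological coefficient of variation of 0.3, agtA had an FDR of 0.0330, the only member at 0.05 or less in a comparison where 0.791% of genes were higher and 0.217% lower at that level.

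On fructose, urea in place of ammonium went with larger differences than in glucose, among members as over all genes. Within 2-fold lay 12 of the 28 members, beside 50.5% of all genes, while 6 were 2-fold higher and 10 were 2-fold lower. Of 28 members, 6 were at least 4-fold lower in urea, namely AN3347, AN3345, AN7150, AN5890, AN7392 and AN0856, and 1 was higher, AN4124. Of all 7203 genes past the minimum 11.0% were 4-fold lower and 11.4% higher, so the members' 21.4% lower stood above the background and their 3.57% higher below it, with no test made of either. AN3347, AN3345, AN7150, AN5890 and AN7392 met this comparison's listing minimum, near 11.0 CPM in the higher library, only through fructose with ammonium. Their direction was therefore set by that minimum, which all genes counted had to meet too. The median of the members was -0.28 against 0.07 for all genes.

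AN3347 had 3 counts in urea against 108 in ammonium, a ratio of -5.44 (-8.24 to -4.35). AN3345, known by its predicted domain, had 6 against 89, -4.40 (-6.15 to -3.48), and AN0856 had 46 against 209, -2.92 (-3.45 to -2.49). For these 3 genes the intervals lay wholly beyond 4-fold. The other three rest on few reads. AN7150 had 0 counts against 10, at least 5.68-fold lower, AN5890 had 2 against 19, -3.37 (-7.16 to -1.97), and AN7392 had 1 against 10, -3.02 (-9.53 to -1.28). With a prior count of 5 in place of 1, AN7150 and AN7392 dropped inside 4-fold, at -1.89 and -1.68.

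At the other end AN4124 had 23 counts in fructose with urea and 0 in both fructose with ammonium and glucose with urea, at least 4.50-fold and 13.3-fold higher. AN10825 stood at 1.54 (0.75 to 2.53), from 72 and 14 counts, and AN6770, AN6757 and AN10319 had ratios between 1.08 and 1.35 with intervals that included 0. AN4124, AN6770 and AN6757 met this table's listing minimum, near 11.0 CPM in the higher library, only through fructose with urea, so their direction here was set by that minimum. At an FDR of 0.05 or less, the authors' deposited table held 1 member higher and 7 lower in urea, beside 9.98% and 11.5% of all listed genes.

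**Figure D2:**
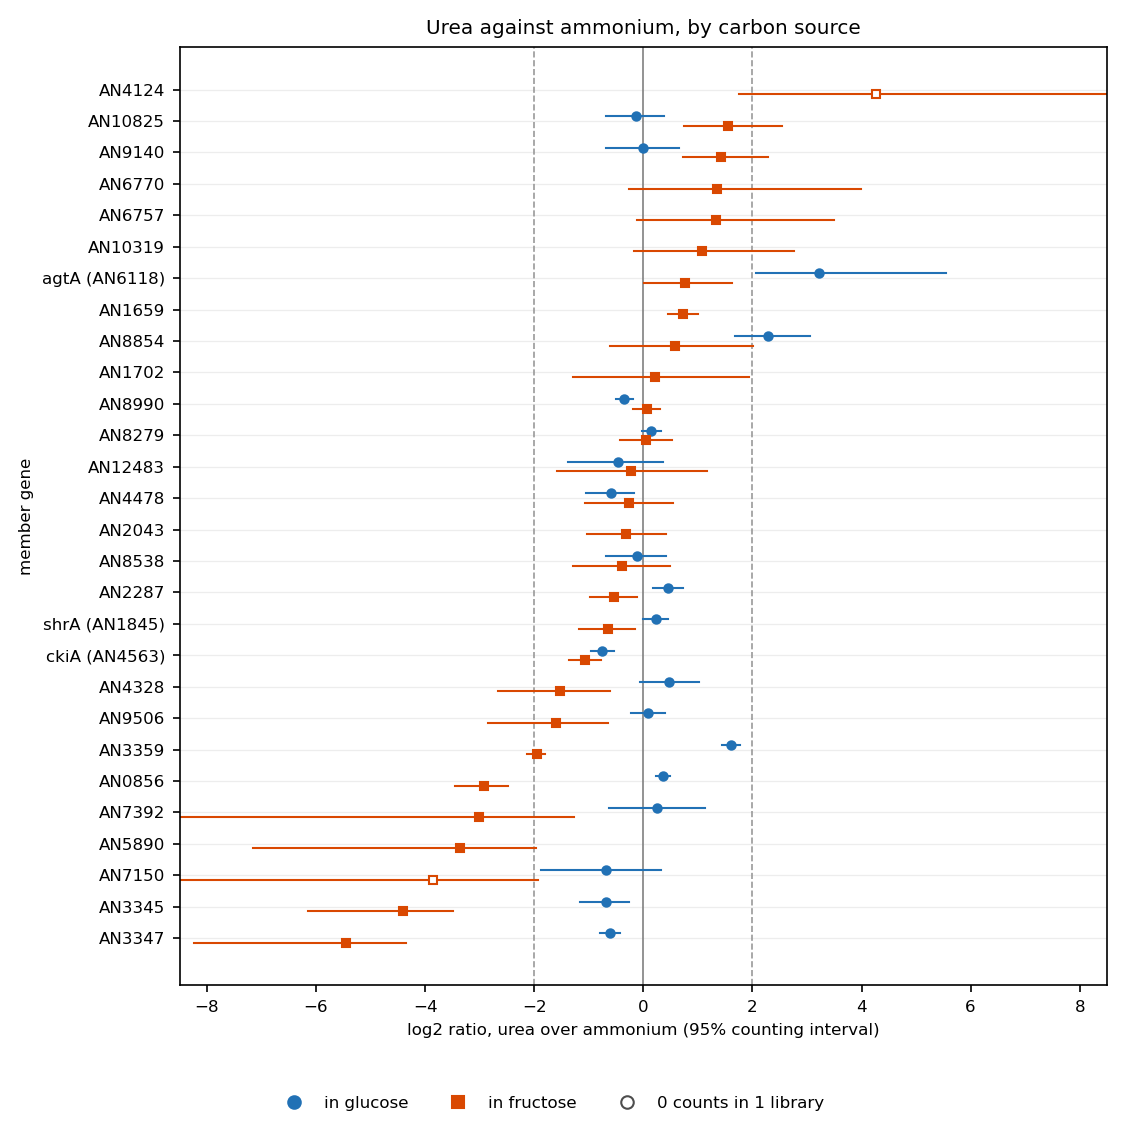
Log2 ratio of urea over ammonium for each member gene in glucose (circles) and in fructose (squares), with 95% Clopper-Pearson intervals, cut at the plot's edge. Dashed lines mark 4-fold and open symbols a gene at 0 counts in 1 library. In glucose 17 of 20 members lie within 2-fold, and in fructose AN3347, AN3345 and AN0856 lie wholly beyond 4-fold on the lower side.

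The ratio in fructose minus the ratio in glucose compares both nitrogen contrasts, which share no library. Of the 20 members past the minimum in both, 7 had a difference of -2 or less on the log2 scale and 0 had one of 2 or more, beside 12.5% and 7.12% of 6024 genes. With a prior count of 5 the number at -2 or less was 4. The lowest were AN3347 at -4.83, AN3345 at -3.70 and AN3359 at -3.56, followed by AN0856 at -3.28, AN7392 at -3.26, AN7150 at -3.17 and agtA at -2.46. The highest were AN10825 at 1.68, AN9140 at 1.44 and AN8990 at 0.41. The 7 were of different kinds: for AN3347, AN3345 and AN0856 the urea library of fructose was low, for AN3359 the ratio changed sign, and agtA was higher in urea in both sugars. These are values of 4 single libraries. AN7392 had 1 count in fructose with urea and AN7150 had 0, so their differences depend on the prior count.

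With urea as nitrogen source, fructose went with higher levels of some transporter genes and lower levels of others. Among 25 members above the minimum, 6 lay 4-fold or more higher in fructose and 5 lay 4-fold or more lower, where all 7135 genes had 14.6% and 15.2%. The median was 0.06 against -0.03 for all genes. After AN1659 and AN4124, the higher members were AN6757 at 3.004 (1.69 to 5.86), AN2043 at 2.45 (1.61 to 3.63), AN9140 and AN10319, the last at 2.15 (1.11 to 3.69). AN6770, below the minimum, had 15 counts against 0 and was at least 8.68-fold higher. AN1659, AN4124, AN6757, AN2043, AN10319 and AN6770 met the listing minimum, near 10.6 CPM in the higher library, only through fructose with urea. Their direction here was set by that listing minimum.

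The 5 lower members were AN3347 at -5.77 (-8.37 to -4.52), AN0856 at -3.52 (-4.00 to -3.11), AN7392 at -2.89 (-8.97 to -0.96), AN9506 at -2.73 (-3.79 to -1.95) and AN3345 at -2.39 (-4.03 to -1.32). AN9506, known by its predicted domain, had 83.7 CPM in glucose with ammonium, 85.4 in glucose with urea, 42.0 in fructose with ammonium and 14.8 in fructose with urea, lowest in the last. Of the 11 differences past 4-fold, those of AN10319, AN3345 and AN7392 fell inside 4-fold with a prior count of 5. In turn AN3347, AN3345 and AN7392 met the listing minimum only through glucose with urea, which set their direction. With an FDR of 0.05 or less, 8 members were higher and 5 lower in fructose in the authors' deposited table, beside 18.9% and 18.4% of listed genes.

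With ammonium as nitrogen source, fructose went with higher levels of 5 of 24 members past the minimum, and 0 were at least 4-fold lower. The shares over all 6647 genes were 8.33% higher and 7.01% lower. The 5 were AN1659, agtA, AN2043, AN3359 and AN5890. Of these, AN1659, agtA, AN2043 and AN5890 met the listing minimum, near 10.4 CPM in the higher library, only through fructose, which set their direction. AN2043, known by its predicted domain, had 3.07 CPM in glucose with ammonium, 7.06 in glucose with urea, 54.8 in fructose with ammonium and 50.5 in fructose with urea. It followed the sugar under both nitrogen sources, at 3.86 (2.96 to 5.45) with ammonium and 2.45 with urea. AN5890 had 19 counts in fructose and 20 in the deeper glucose library, 2.05 (1.15 to 3.12), and fell inside 4-fold with a prior count of 5.

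The median of the members with ammonium was 0.59, where all genes had -0.11, and the lowest was AN8279 at -1.28. AN0856 and AN3347, far lower in fructose with urea, stood at -0.25 (-0.47 to -0.04) and -0.78 (-1.09 to -0.49) with ammonium. AN3345 had opposite signs, 1.40 (1.02 to 1.79) with ammonium and -2.39 with urea, with 59.5, 35.3, 163 and 7.38 CPM in the 4 libraries. The authors' deposited table listed 4 members higher and 0 lower at an FDR of 0.05 or less, beside 9.78% and 5.52% of listed genes. Each carbon comparison shares a library with each nitrogen comparison, so their values for a gene are not independent.

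**Figure D3:**
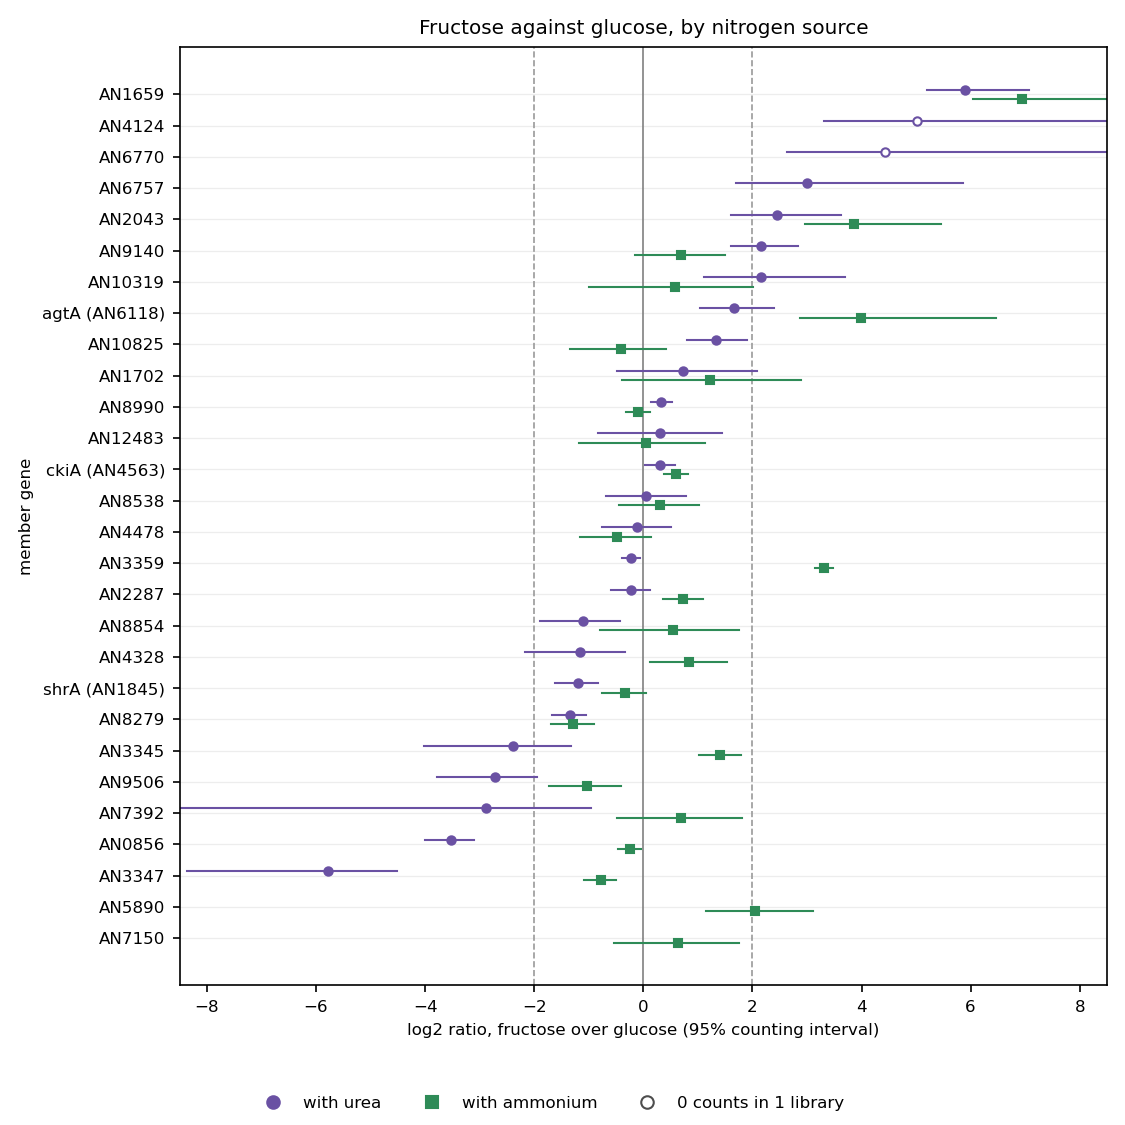
Log2 ratio of fructose over glucose for each member gene with urea (circles) and with ammonium (squares), with 95% Clopper-Pearson intervals, cut at the plot's edge. Dashed lines mark 4-fold and open symbols a gene at 0 counts in 1 library. AN1659 and AN2043 lie beyond 4-fold on the higher side under both nitrogen sources, and the 5 members beyond 4-fold on the lower side are all from the comparison with urea.

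The remaining members had few reads. AN1702 had between 4.22 and 14.8 CPM and AN12483 between 10.6 and 16.5 CPM, with all intervals of their ratios including 0. AN4328 had 24.6, 33.0, 45.7 and 17.2 CPM, each overlapping its neighbour in level by its Poisson interval, and the ratio of urea to ammonium in fructose was -1.52 (-2.66 to -0.61). Over the 24 members with 4 counts, 10 were highest in fructose with ammonium and 7 in fructose with urea, where 19.5% and 40.1% of the 6789 genes with 4 counts were. For 3 of each the highest library stood apart from all others by its Poisson interval. Fructose with urea was the lowest library for 8 of these 24 members, a share near the 32.7% of the 6789 genes. For 5 of the 8 its interval lay apart. How many of all genes stood apart in either way was not counted, so the 3 and the 5 have no background.

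Members were next placed beside their neighbours, using the gene order of RefSeq assembly ASM1142v1, in which 26 of 28 members were found. AN3347 and AN3345 are separated by 1 gene, and 14 genes lie between AN3359 and AN3347. In fructose, AN3347, AN3345 and their adjacent genes were lower in urea. AN3344 (ngn27), a putative acetyltransferase gene, had 2 counts in urea against 62, a ratio of -5.04 (-8.80 to -3.81). AN3346 had 2 against 9, -2.35 (-6.19 to -0.67), and AN3348 had 5 against 33, -3.20 (-5.21 to -2.13). Thus 5 genes in a row were past 4-fold. Each met the listing minimum, near 11.0 CPM in the higher library, only through fructose with ammonium. Their shared direction was therefore set by that minimum, and runs of this length were not counted over all genes. AN3349, a cytochrome P450 gene next to AN3348, stood at 1.07 (0.56 to 1.63).

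Both genes flanking AN3359 were, like it, highest in fructose with ammonium among the libraries that list them, with few reads. AN3360, with a predicted domain for hydrolysis of glycosyl compounds, had 3 counts in glucose with ammonium, 14 in fructose with ammonium and 3 in fructose with urea, and AN11391 had 7, 23 and 6. Their ratios of fructose to glucose with ammonium were 3.84 (2.59 to 6.87) and 3.64 (2.66 to 5.39), beside 3.31 for AN3359. Both flanking genes met the listing minimums, near 10.4 and 11.0 CPM in the higher library, only through fructose with ammonium. That set their direction and made this library their highest. Of all 736 genes with a RefSeq position that were at least 4-fold lower in urea in fructose, 21.6% had an adjacent gene that was too. Among the members it was 2 of 6, AN3345 and AN3347. AN4124 lay beside AN4125, with 17 counts in fructose with urea and 0 in fructose with ammonium and in glucose with urea. Both met the listing minimums only through fructose with urea, which set their direction. On the other side of AN4124 lay AN4123, a predicted zinc transcription factor gene. It had 36 counts in fructose with urea, 7 in each ammonium library and 0 in glucose with urea. Against glucose with urea its direction was set in the same way.

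**Figure D4:**
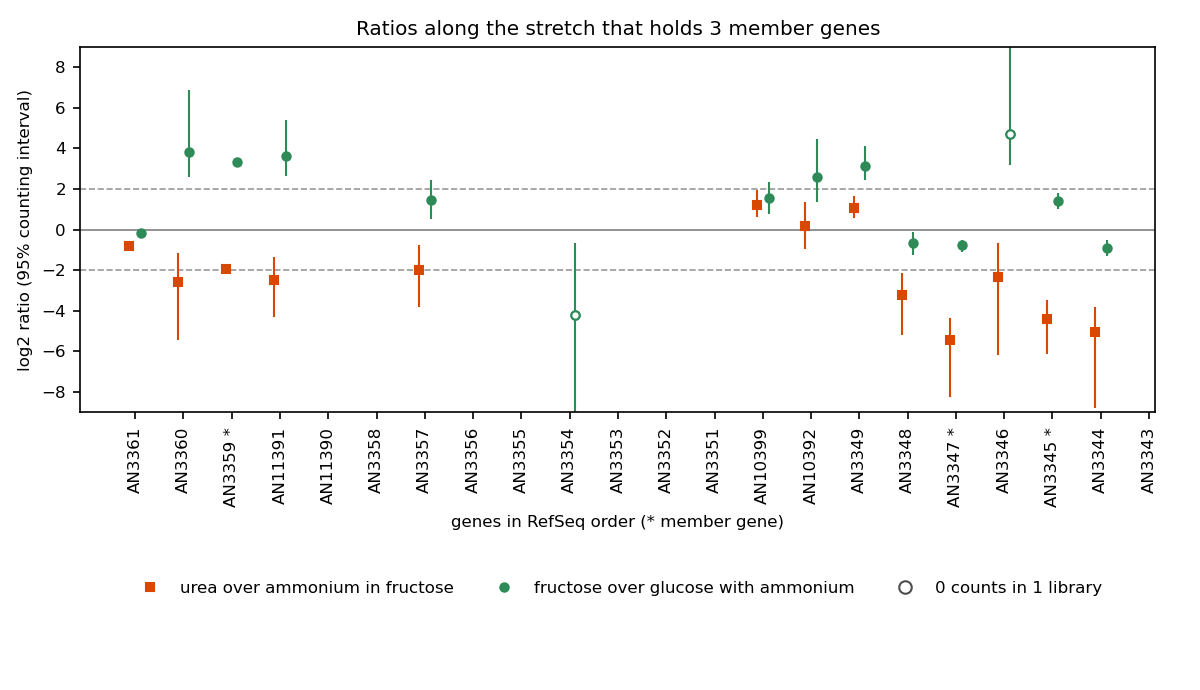
Log2 ratios along 22 genes in RefSeq order around AN3359, AN3347 and AN3345 (starred), for urea over ammonium in fructose (squares) and fructose over glucose with ammonium (circles), with 95% Clopper-Pearson intervals, cut at the plot's edge. Genes with no symbol are not listed in that comparison, dashed lines mark 4-fold and open symbols a gene at 0 counts in 1 library. The squares of the 5 genes from AN3348 to AN3344 all lie below the lower dashed line, a direction set by the listing minimum.

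On the antisense strand, reads made up 24.6% to 28.9% of all listed counts in each library. Summed over the members they made up 34.0% in glucose with ammonium, 32.5% in glucose with urea, 35.0% in fructose with ammonium and 27.3% in fructose with urea. Without AN2287, a choice made after its values were seen, the shares were 28.8%, 26.2%, 26.1% and 27.3%. AN3359, AN0856, AN8279 and ckiA lay between 20.9% and 34.8%. AN8990 lay below the library shares throughout, at 10.5% (8.75% to 12.4%), 14.5% (11.8% to 17.6%), 12.3% (8.39% to 17.2%) and 8.68% (6.12% to 11.9%).

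AN2287 had more antisense than sense reads in 3 libraries. It had 817 antisense counts in glucose with ammonium, 643 in glucose with urea, 482 in fructose with ammonium and 38 in fructose with urea, against 238, 204, 86 and 100 sense counts. The antisense share was 77.4% (74.8% to 79.9%), 75.9% (72.9% to 78.8%), 84.9% (81.6% to 87.7%) and 27.5% (20.3% to 35.8%). Its antisense ratio of urea to ammonium in fructose was -4.09 (-4.64 to -3.65), while the sense ratio was -0.55 (-0.98 to -0.12). The adjacent gene alcC (AN2286), for alcohol dehydrogenase III, had 3128, 2042, 1061 and 45 sense counts in the same order, a ratio of -5.29 (-5.79 to -4.90). Whether reads from alcC account for these counts was not tested.

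AN3345 had an antisense share of 58.6% in glucose with ammonium, 72.4% in glucose with urea, 16.04% in fructose with ammonium and 62.5% in fructose with urea, from 219, 157, 17 and 10 antisense counts. Its neighbour AN3344 had 539, 377, 62 and 2 sense counts there. Whether reads from that gene account for the antisense counts of AN3345 was not tested. AN4124 had 92 antisense and 23 sense counts in fructose with urea, an antisense share of 80.0% (71.5% to 86.9%), and 13 antisense counts with 0 sense counts in fructose with ammonium. The agtA gene had 27 antisense counts in glucose with urea and 1 with ammonium, an antisense ratio of 4.50 (3.07 to 11.03). A listing minimum applied to antisense counts too, here near 10.4 CPM in the higher library. The agtA gene met it only through urea, so its direction was set by listing on both strands.

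Past 4-fold, the antisense counts of 27 members past the minimum in fructose gave 8 higher and 7 lower in urea by fitted ratios, where all 7248 antisense genes had 16.3% and 13.3%. Several of these had 0 counts in 1 library and a bound below 4-fold, AN6757, AN6770 and AN8538 among the higher and AN5890, AN7150 and AN7392 among the lower. With genes at 0 counts set to their bound against 3 counts, 5 members (18.5%) were higher and 4 (14.8%) lower, beside 8.21% and 10.5% of all antisense genes. In glucose 1 of 20, agtA, was higher and 0 lower, beside 2.18% and 2.32%, the latter 1.9% with bounds. Fructose against glucose gave 5 higher and 6 lower of 22 with urea, beside 14.3% and 17.8%, and 3 higher and 2 lower of 22 with ammonium, beside 9.36% and 13.0%. Both of the latter, AN4478 and AN8538, had 0 counts in fructose with ammonium and bounds of at least 2.41-fold and 1.02-fold lower, so with bounds 0 members were 4-fold lower with ammonium, beside 6.89% of all antisense genes. With urea, AN7392 likewise had 0 counts and a bound of 3.21-fold, which leaves 5 lower, beside 14.1%.

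**Figure D5:**
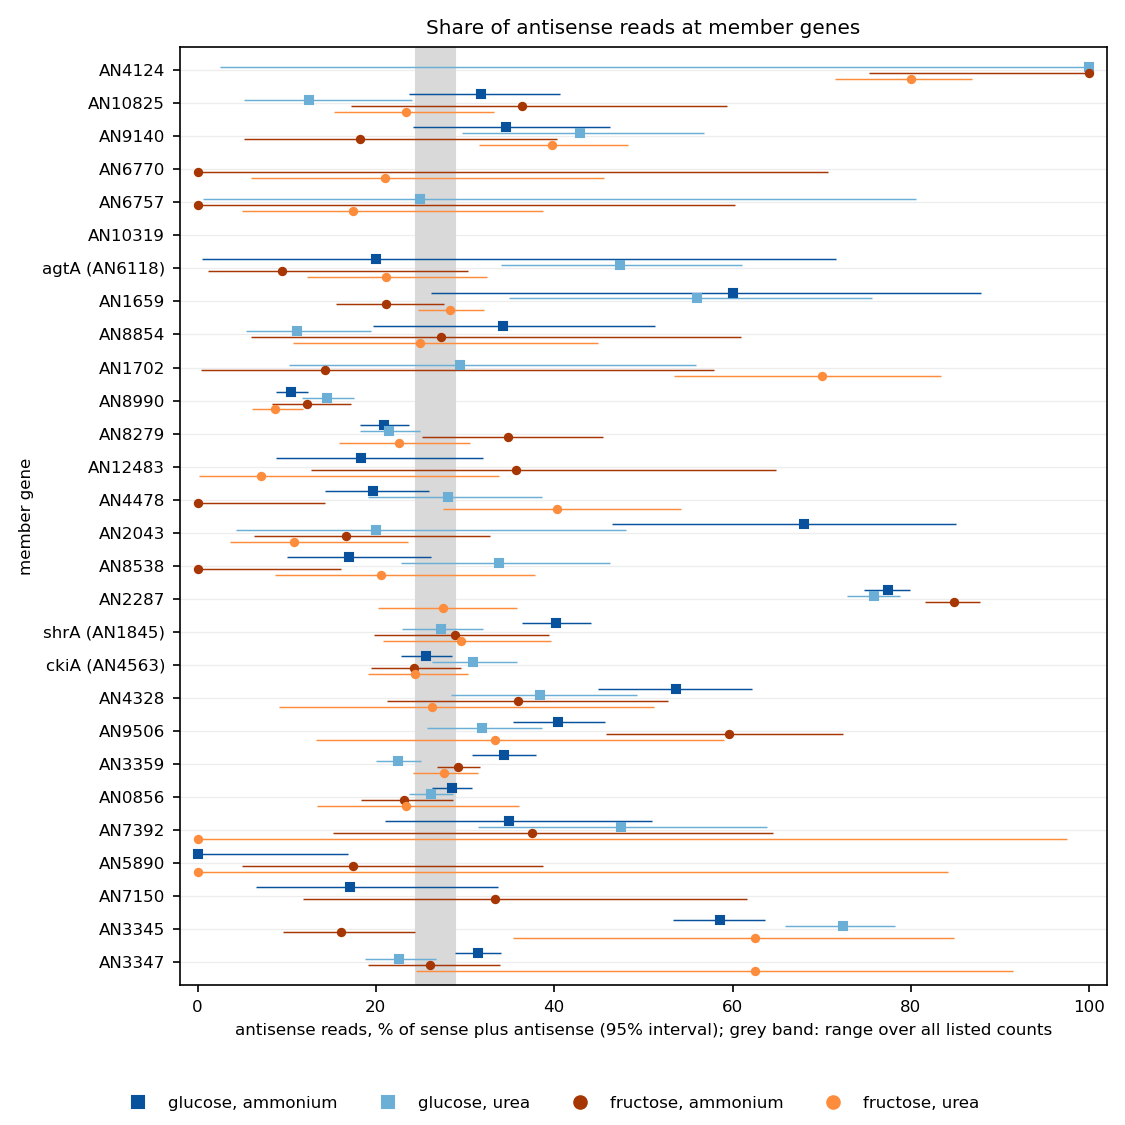
Antisense reads as a percentage of sense plus antisense reads at each member gene in the 4 libraries, with exact 95% binomial intervals. The grey band is the range of this share over all listed counts, 24.6% to 28.9%. AN2287 lies at 75.9% to 84.9% in 3 libraries and at 27.5% in fructose with urea.

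Related genes outside the rule were described for comparison. The proline permease gene prnB had 134 counts in glucose with ammonium, 81 in glucose with urea, 6 in fructose with ammonium and 35 in fructose with urea. Its ratio of fructose to glucose was -2.21 (-3.74 to -1.11) with ammonium and -0.41 (-1.03 to 0.17) with urea. The proline breakdown genes of the same cluster were higher in fructose with either nitrogen source. The ratios of prnD, for proline dehydrogenase, were 6.99 (5.96 to 10.92) with ammonium and 4.87 (4.20 to 5.93) with urea. Those of prnC, for the next enzyme, were 3.90 (3.04 to 5.37) and 5.18 (4.49 to 6.29). In all, 2 of 5 cluster genes were 4-fold higher in each carbon comparison and 1 lower, prnB with ammonium and prnX with urea. Over all genes the shares were 8.33% higher and 7.01% lower with ammonium, and 14.6% and 15.2% with urea. In both comparisons prnD and prnC met the listing minimum only through fructose, and prnX with urea only through glucose. That set their direction. With urea in place of ammonium in fructose, prnC and the activator gene prnA were 4-fold higher and prnX lower, beside 11.4% and 11.0% of all genes. There prnA met the listing minimum only through urea and prnX only through ammonium, which set their direction. In glucose 0 of the 3 listed were past 4-fold, beside 1.34% higher and 0.535% lower over all genes.

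Genes whose description names peptide or oligopeptide transport numbered 6, and not all are described for uptake into the cell. Orthologs of AN2052 export oligopeptides from the mitochondrion, and those of AN7597 are placed in the endoplasmic reticulum. AN8903, annotated as higher under nitrate limitation, had 42, 92, 191 and 611 counts in the order glucose with ammonium, glucose with urea, fructose with ammonium and fructose with urea. Its fructose ratios were 4.34 (3.91 to 4.91) with ammonium and 3.51 (3.21 to 3.86) with urea. With urea the median of the 5 past the minimum was -1.70. AN2052 stood at -1.70 (-2.17 to -1.28), AN3408 at -1.70 (-2.55 to -1.004) and AN8915 at 0.08 (-0.37 to 0.53). With ammonium AN8903 and AN8374, among 5 past the minimum, were 4-fold higher, beside 8.33% of all genes, and the median was 0.34. AN8374, whose orthologs transport oligopeptides, had 58, 32, 53 and 0 counts, at least 30.1-fold lower in fructose with urea than with ammonium. In that comparison it met the listing minimum only through ammonium, which set its direction. In glucose, 0 of 5 past the minimum reached 4-fold between the nitrogen sources, beside 1.34% higher and 0.535% lower over all genes.

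Among 6 listed genes for permease trafficking, shrA included, the arrestin-like gene apyA (AN3265) was the one past 4-fold, in both carbon comparisons. It had 320 and 179 counts in the glucose libraries and 1 and 0 in the fructose libraries. That is at least 34.4-fold lower with urea and a ratio of -5.68 (-11.42 to -3.62) with ammonium. Over all genes 15.2% were 4-fold lower with urea and 7.01% with ammonium. The apyA gene met both listing minimums only through glucose, which set its direction. Its relative creD had 913, 359, 50 and 184 counts, with -1.97 (-2.42 to -1.57) for fructose over glucose with ammonium. The ubiquitin ligase gene hulA lay within 2-fold in all 4 comparisons. The symbol artA belongs in these tables to a 14-3-3 protein gene, and its ratios lay between -0.46 and -0.003.

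Of 8 regulator genes, 1 value passed 4-fold, prnA in fructose at 2.08 (0.78 to 4.23), from 33 and 4 counts. In that comparison 11.4% of all genes were 4-fold higher. There prnA met the listing minimum only through urea, which set its direction. The carbon repressor gene creA was higher in fructose, at 1.79 (1.41 to 2.21) with urea and 1.63 (1.23 to 2.06) with ammonium. The activator gene areA stood at 0.54 (0.21 to 0.87) for urea over ammonium in glucose and 1.03 (0.46 to 1.67) in fructose. The bZIP gene meaB, which acts in nitrogen metabolite repression, was higher with urea in both sugars, 1.53 (0.91 to 2.26) and 1.97 (1.31 to 2.79). The gene cpcA, for the activator of cross-pathway control of amino acid synthesis, stood at 1.76 (1.19 to 2.37) for fructose over glucose with ammonium and 0.47 (-0.09 to 1.05) with urea. The median of the 8 lay between 0.19 and 0.57 over the 4 comparisons.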

How the data were processed

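RNA-seq libraries from 4 growth conditions, 1 per condition and each from pooled RNA of 3 cultures, were read from 8 deposited tables, a sense and an antisense table for each of 4 pairs of libraries. Per the labels' protocols, total RNA was depleted of rRNA, made into strand-specific ScriptSeq libraries and sequenced paired-end. HTSeq and edgeR are named in the submitters' processing notes, with no version, and the sources used here name no aligner, genome build or annotation. The authors deposited whole-number counts per gene, a log2 fold change and mean log2 CPM, and a p-value with FDR that rest on a biological coefficient of variation of 0.3 named with the tables. Since no spread was measured, those p-values rest on that assumption. The 16 normalised columns were not used. The authors' fold changes are ammonium over urea in the nitrogen tables, whose signs were turned where their calls are counted, and fructose over glucose in the carbon tables.

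Counts were scaled per table with TMM in edgeR 4.0.16 (R 4.3.3). Log2 ratios used a prior count of 1, and their 95% intervals are Clopper-Pearson intervals of the 2 counts under that scaling. Differences of at least 4-fold were counted where the authors' deposited mean log2 CPM was 3 or above. A gene at 0 counts in 1 library was set to 3 counts for an "at least" value. CPM are counts scaled to a listed total of 1000000, sense or antisense. The ratios differed from the authors' deposited log2 fold changes by at most 0.0827 for genes with 20 or more counts in both libraries. The calculation was checked on simulated counts. The members and gene lists were chosen with earlier results of these data known. Members named were those with a symbol, the 3 with the most reads per library, the 5 highest and 5 lowest ratios per comparison past the minimum, the 3 highest and 3 lowest differences between nitrogen ratios and the 5 with the most antisense counts. Other members, neighbouring genes and the genes picked from the other lists were named after their values were seen. RefSeq (ASM1142v1) gave gene order only, and no gene sequence was used here. Alternatives were other scalings, prior counts, minimums, thresholds and routes through the other tables.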

Additional observations from a re-analysis of the deposited data

Results flagged for a closer look

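A pair of members had opposite signs under the same contrast in different backgrounds. For AN3359, the ratio of urea to ammonium was 1.60 (1.44 to 1.77) in glucose, from 873 and 457 counts, and -1.96 (-2.13 to -1.80) in fructose, from 431 and 984 counts. For AN3345, the ratio of fructose to glucose was 1.40 (1.02 to 1.79) with ammonium, from 89 and 155 counts, and -2.39 (-4.03 to -1.32) with urea, from 6 and 60 counts. With 1 library per condition the difference was not tested for either gene, and the intervals cover counting error only.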

How the results depend on the processing

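Total count, RLE and common-gene TMM scaling moved no member across 4-fold. A prior count of 5 moved 6 values across it, those of AN7150 and AN7392 for nitrogen in fructose, AN10319, AN3345 and AN7392 for carbon with urea and AN5890 for carbon with ammonium. Over 804 alternative values of single members and sums, 797 lay inside the counting interval of the reported value, 7 lay outside, and 0 called values changed sign. Among 140 alternative values of the summaries, 117 lay within 1.5 times or the interval of the reported one. With a minimum mean log2 CPM of 5, 0 of 11 members were 4-fold higher with urea in glucose, 0 higher and 3 lower of 16 in fructose, 2 higher and 3 lower of 15 for fructose over glucose with urea, and 2 higher of 14 with ammonium. A 2-fold threshold gave 6 higher and 10 lower with urea in fructose, 9 lower in fructose with urea and 2 lower in fructose with ammonium. In that order 12 of 28, 8 of 25 and 16 of 24 members lay within 2-fold, beside 50.5%, 43.8% and 58.2% of all genes. Keeping members with all 4 counts left 0 higher with urea in fructose. The route through the other tables, open to 19 members, gave 0 higher for urea in fructose, 1 higher for fructose with urea and 2 with ammonium. These settings count fewer genes or another fold by construction. The median ratio of the members turned negative for urea in glucose under total count scaling, at -0.01, and for carbon with urea with the minimum of 5, members with all 4 counts and the other route, at -0.22, -0.11 and -0.26. A prior count of 5 left 3 lower in fructose with urea and 4 differences of -2 or less. With genes at 0 counts at their bound, added after seeing the data, antisense calls were 5 higher and 4 lower for urea in fructose and 0 lower for carbon with ammonium. With sense plus antisense counts as denominator, summed antisense levels were 909.8, 942, 1729 and 768 CPM in the library order used above.

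Total count scaling moved the median of all genes by 0.19 for nitrogen in fructose and 0.26 for carbon with urea, and TMM on common genes moved it by 0.18 and 0.11 for carbon with urea and with ammonium. Single libraries, 0 counts in the shallow fructose libraries and gene tables that omit low genes limit all values. No paired analysis was possible because each condition has 1 library.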

Other observations

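Permease genes for gamma-aminobutyric acid, a list added after descriptions and values had been seen, numbered 4. AN1061, a putative GABA permease gene, had 62 counts in glucose with ammonium, 139 in glucose with urea, 38 in fructose with ammonium and 229 in fructose with urea. Its ratios were 1.81 (1.39 to 2.29) and 1.80 (1.32 to 2.36) for urea over ammonium in glucose and fructose, and 1.51 (1.20 to 1.83) and 1.48 (0.88 to 2.11) for fructose over glucose with urea and ammonium. All 4 ratios were positive. The gabA gene, for a putative GABA permease, had 104, 93, 23 and 20 sense counts and 354, 214, 65 and 18 antisense counts. AN3304, a putative GABA transporter gene, had 13 counts in fructose with urea and 0 in fructose with ammonium, at least 2.54-fold higher. It met the listing minimum only through fructose with urea, which set its direction.

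Among 101 genes whose description names farnesol, 3 of them members and the list chosen after values were seen, 43 (42.6%) were at least 4-fold lower in fructose than in glucose with urea, where 15.2% of all genes were. The median ratio was -1.78. With ammonium 12 of 99 (12.1%) were 4-fold lower, where 7.01% of all genes were, and for urea over ammonium in fructose 21 of 96 (21.9%), where 11.0% were.

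The chaperone gene hsp104, near AN0856 in RefSeq order, had 9763, 5955, 7629 and 1046 counts in glucose with ammonium, glucose with urea, fructose with ammonium and fructose with urea. Its ratio of urea to ammonium in fructose was -3.63 (-3.73 to -3.54), where that of AN0856 was -2.92. AN0857, which lies between them, stood at -1.45 (-2.31 to -0.71), and AN0855 on the other side of AN0856 at 1.01 (0.06 to 2.17). For fructose over glucose, hsp104 stood at 1.85 with ammonium and -1.71 with urea, where AN0856 stood at -0.25 and -3.52.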
